A study of Mus musculus with 6 samples.

Results

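Kupffer cells are the macrophages that live in the liver sinusoids, where they take up particles, dying cells and damaged blood proteins from portal blood. Here 10 genes that mark Kupffer cells or macrophages in general were followed in mouse liver, chosen by symbol and without genes of antigen presentation: Cd163, Clec4f, Vsig4, Timd4, Cd5l, Marco, Csf1r, Emr1, Cd68 and Lyz2. All 10 were among the 23291 gene symbols of the deposited tables, and all 10 passed the filter on low values. The livers came from C57BL/6 mice, and their RNA was sequenced. The diet group had received a high fat diet, called a Western diet in the sample titles, for 3 months. The dabigatran group had received, for the same 3 months, high fat food that held dabigatran etexilate at 10 mg/g. This compound is an oral prodrug of the thrombin inhibitor dabigatran. The design text speaks of 3 mice per group. The labels used here give neither age nor sex.

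There were 3 diet libraries, with the replicate numbers 0, 1 and 2. Of the 3 dabigatran files, those labelled 0 and 1 matched in each of the 23291 genes and both carried the number 1 inside. They entered as 1 library, dabigatran replicate 1, beside dabigatran replicate 2 (n = 2). In a principal component analysis of the tested genes, diet replicate 1 lay apart from its group on the leading axis (49.2% of the variance), at -6.16, beside -29.5 and -28.8 in diet replicates 0 and 2 and 15.8 and 48.7 in dabigatran replicates 1 and 2. Values are FPKM, which scale fragments to the length of the gene and the size of the library, so levels can be compared between genes. Relative to diet replicate 0, the depth of the other libraries was 0.761 to 0.967. In whole liver, fewer cells of a type and less RNA per cell cannot be told apart.

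The markers fall into several roles. Csf1r is the receptor for the macrophage growth factors CSF1 and IL-34, on which Kupffer cells depend. Clec4f (a galactose-binding lectin receptor), Vsig4 (a complement receptor that captures bacteria from blood), Timd4 (a receptor for phosphatidylserine on dying cells) and Cd5l (a secreted scavenger protein) mark resident Kupffer cells in the mouse liver. Cd163 takes up complexes of haptoglobin and free haemoglobin, and Marco is a scavenger receptor with a collagenous domain. Emr1 (now Adgre1) encodes the surface protein F4/80, Cd68 a lysosomal membrane protein and Lyz2 lysozyme M, all 3 of which are general macrophage genes. Lyz2 is also abundant in neutrophils.

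The promoters of 4 markers are shown because they span the range of behaviour below: Cd163 differed most between the groups by p, Marco varied most between libraries, Clec4f varied least, and Vsig4 was among the steadier genes. Each is the run of 250 bases before the gene's start in RefSeq (GRCm38.p6), on the gene's own strand, with capitals for GAGGAA on either strand, the core recognised by the macrophage transcription factor PU.1. Cd163 lies at chr6:124304401-124304650 on the plus strand, Marco at chr1:120505025-120505274, Clec4f at chr6:83656117-83656366 and Vsig4 at chrX:96293439-96293688, all 3 on the minus strand.
Cd163: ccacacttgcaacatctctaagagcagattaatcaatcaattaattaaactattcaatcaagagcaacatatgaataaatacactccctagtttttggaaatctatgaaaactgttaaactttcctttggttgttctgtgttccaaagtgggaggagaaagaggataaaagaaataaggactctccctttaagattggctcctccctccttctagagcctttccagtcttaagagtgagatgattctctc
Marco: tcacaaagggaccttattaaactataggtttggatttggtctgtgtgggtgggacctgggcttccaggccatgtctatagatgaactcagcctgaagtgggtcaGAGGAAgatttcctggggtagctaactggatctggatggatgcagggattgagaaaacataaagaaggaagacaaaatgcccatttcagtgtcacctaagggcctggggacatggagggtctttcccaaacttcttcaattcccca
Clec4f: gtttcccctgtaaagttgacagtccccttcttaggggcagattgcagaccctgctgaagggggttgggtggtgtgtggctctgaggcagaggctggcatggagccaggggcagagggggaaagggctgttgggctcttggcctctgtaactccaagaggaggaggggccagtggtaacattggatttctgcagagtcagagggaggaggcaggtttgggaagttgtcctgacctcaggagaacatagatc
Vsig4: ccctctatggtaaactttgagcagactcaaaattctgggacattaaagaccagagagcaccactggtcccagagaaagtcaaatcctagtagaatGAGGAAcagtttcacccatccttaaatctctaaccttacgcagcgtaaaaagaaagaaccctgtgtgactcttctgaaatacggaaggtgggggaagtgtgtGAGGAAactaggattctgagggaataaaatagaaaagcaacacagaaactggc
An entry was found for 8 of the 10 markers. GAGGAA was present in 4 of the 8 promoters (Vsig4, Cd5l, Marco and Cd68), and in 23.3% of all 32851 promoters of this length. ACANNNTGT, a core of glucocorticoid receptor sites, was present in 2 of the 8 (Timd4 and Lyz2), and in 5.84% of all. TGCTGA, a core of MAF sites, was present in 4 of the 8 (Clec4f, Timd4, Cd5l and Lyz2), and in 16.1% of all. Both strands were searched for each motif, and no match of any motif overlapped a match of another. The Cd163 window held none of these strings. A match describes the letters, not a bound site.

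Cd5l was the most abundant marker, and Marco the least, by the median over the 5 libraries. The medians were 83.3 FPKM for Cd5l, 73.4 for Lyz2, 60.1 for Clec4f, 33.4 for Vsig4 and 16.8 for Csf1r. They were 11.1 for Emr1, 10.9 for Cd68, 6.11 for Cd163, 4.81 for Timd4 and 4.08 for Marco. Neighbours in this order did not overlap over the libraries between Clec4f and Vsig4, Vsig4 and Csf1r, and Csf1r and Emr1. All other neighbours overlapped, although Cd5l was above Lyz2 in each of the 5 libraries. The top 3 markers and Vsig4 thus lay above Csf1r in every library, as the plot of levels by library shows.

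**Figure D1:**
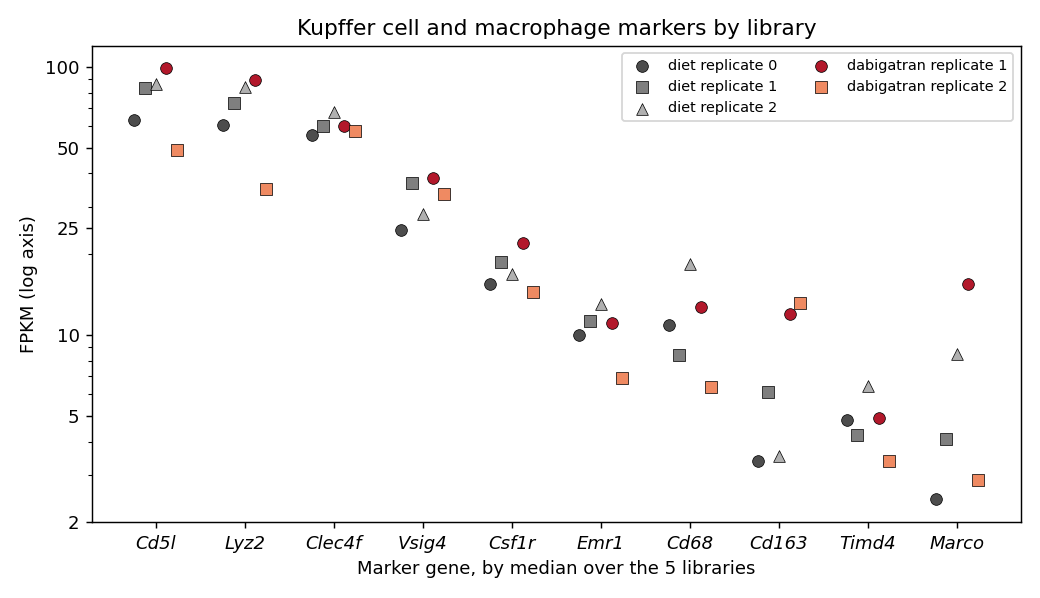
FPKM of each marker (log axis) in each of the 5 libraries, with grey points for the diet group and red or orange points for the dabigatran group. Cd163 had both dabigatran points above all 3 diet points, while the groups overlapped for the other 9 markers.

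None of the 10 markers passed the test between the groups (limma on log2(FPKM + 0.5), adjusted p under 0.05 over all 10247 tested genes). Of all tested genes, 0.429% were called, 0.127% as higher and 0.303% as lower with dabigatran. At an unadjusted p under 0.05, 1 marker, Cd163, was higher and none was lower, beside 6.87% and 9.13% of all tested genes, and voom (9 markers, without Cd163) gave 0 at either threshold. The groups did not overlap for 1 of the 10 (higher with dabigatran), against 34.4% of all tested genes, 17.2% in each direction. The markers' median log2 difference was -0.09, with 4 above 0 and 6 below. That of all tested genes was 0.02, with 51.9% above 0. Neither these counts nor the median thus set the markers apart from tested genes in general.

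Cd163 (chromosome 6, 124304656 to 124330527, GRCm38) was the marker with the lowest p. It had 3.38, 6.11 and 3.52 FPKM in diet replicates 0, 1 and 2 and 11.9 and 13.2 in dabigatran replicates 1 and 2. Both dabigatran libraries lay above every diet library, and diet replicate 1 was the highest of its group. The mean was 4.34 ± 1.54 FPKM (SD, n = 3) in the diet group and 12.6 ± 0.876 (SD, n = 2) with dabigatran. The log2 difference was 1.47 ± 0.28 (SE), 2.78-fold on the log2(FPKM + 0.5) scale with a 95% confidence interval of 1.77 to 4.36, and limma's adjusted p was 0.0714. A total of 111 tested genes had a lower p. The threshold was passed without diet replicate 1 (log2 difference 1.72, limma, adjusted p = 0.0128). That setting called 294 of all 10247 tested genes, against 44 in the main fit. Over all 13 alternatives that could test Cd163, the log2 difference ran from 1.34 to 1.72. In those with at least 2 libraries in each group, limma's adjusted p ran from 0.0128 to 0.273.

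**Figure D2:**
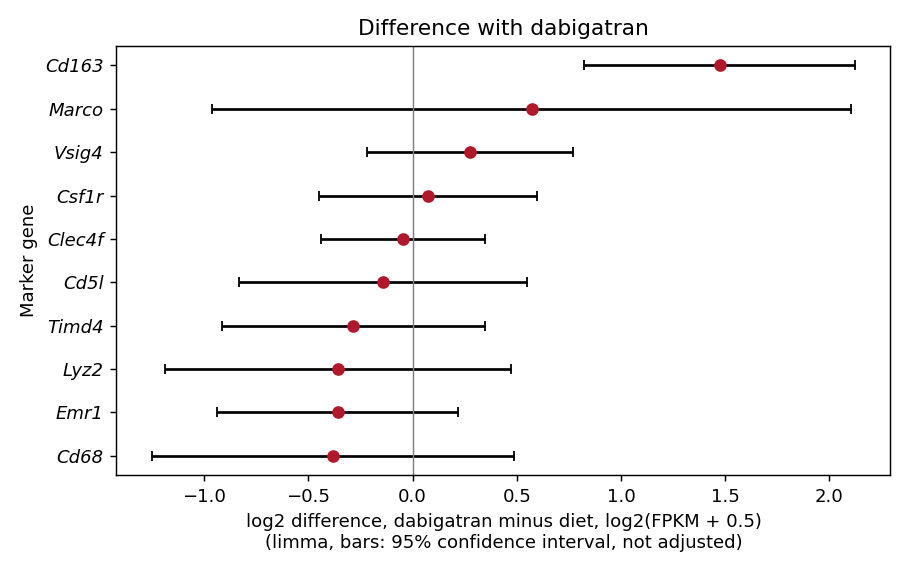
Log2 difference between the dabigatran and diet groups for each marker (points, limma on log2(FPKM + 0.5)) with its 95% confidence interval (bars). The interval of Cd163, from 0.82 to 2.13, lay above 0, and those of the other 9 markers included 0.

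Relative to Clec4f, Vsig4, Csf1r, Emr1 and Cd5l, Cd163 was also higher in both dabigatran libraries, but not relative to Marco. The FPKM ratio of Cd163 to Clec4f was 0.0610, 0.102 and 0.0518 in diet replicates 0, 1 and 2, and 0.198 and 0.228 in dabigatran replicates 1 and 2. The ratio to Vsig4 was 0.138, 0.166 and 0.124 in the diet libraries and 0.311 and 0.394 with dabigatran. The groups did not overlap in either ratio, nor in those to Csf1r, Emr1 and Cd5l, which were themselves lowest in dabigatran replicate 2. Marco was above Cd163 in dabigatran replicate 1 (15.5 against 11.9 FPKM). It was below Cd163 in diet replicates 0 (2.44 against 3.38) and 1 (4.08 against 6.11). The ratio to Csf1r was 0.218, 0.328 and 0.210 against 0.544 and 0.910. These ratios are a description and were not tested, since Cd163 was singled out after its values were seen.

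**Figure D3:**
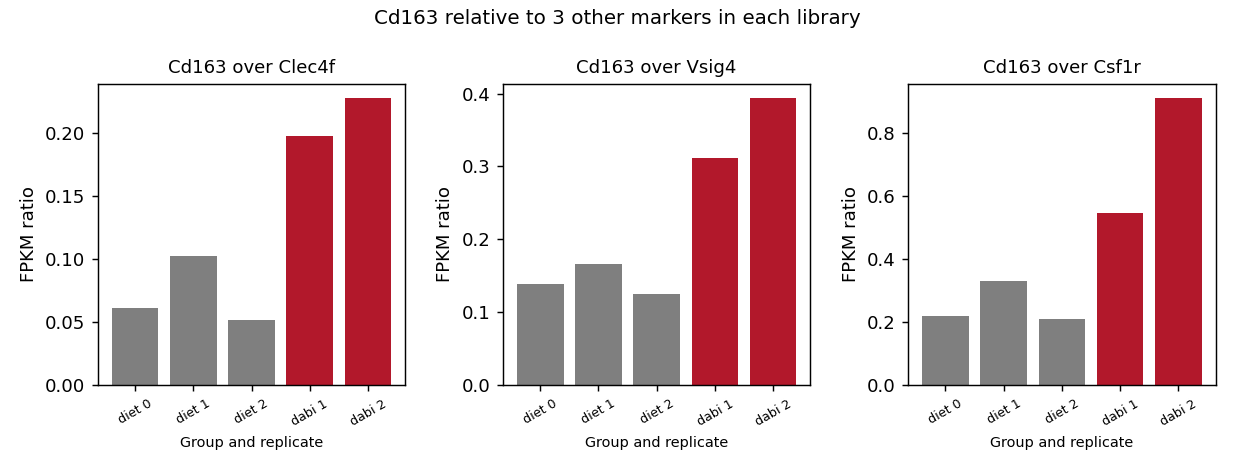
FPKM of Cd163 divided by that of Clec4f, Vsig4 or Csf1r in each library, with grey bars for diet replicates 0, 1 and 2 and red bars for dabigatran (dabi) replicates 1 and 2. In each panel both dabigatran bars are above all 3 diet bars.

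Among tested genes outside the markers, Itih3, Serpina3k and Serpina3n had the pattern over the 5 libraries most like that of Cd163. Likeness was the root mean square distance of log2(FPKM + 0.5) values, each gene centred on its own mean. Itih3, which encodes an inter-alpha-trypsin inhibitor heavy chain, was nearest (distance 0.0935), with 185, 267 and 175 FPKM across the diet libraries and 501 and 562 with dabigatran. Serpina3k (0.129) and Serpina3n (0.140), serine protease inhibitor genes, followed. Serpina3n had 173, 282 and 142 FPKM against 439 and 524. All 3 had diet replicate 1 highest in its group, as Cd163 did, which the choice by likeness over these same libraries favours. None passed the test (limma, adjusted p of 0.0560, 0.126 and 0.0863). In all, 15 tested genes lay within 0.2 of Cd163, against 2070 within 0.2 of Clec4f, whose values hardly varied.

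Some genes of the hepatocyte list were higher with dabigatran, as Cd163 was. Summed over its 10 genes it had 32540 to 35380 FPKM across the diet libraries and 35730 and 48090 in dabigatran replicates 1 and 2. Among its members, none passed the test. At an unadjusted p under 0.05, 5 were higher and 0 lower, beside 6.87% and 9.13% of all tested genes. The groups did not overlap for 5 higher genes and 1 lower gene, beside 17.2% of all tested genes in each direction. Cps1, the entry enzyme of the urea cycle, had 248, 469 and 282 FPKM against 826 and 1793 (adjusted p = 0.0738), and Tat, a tyrosine-degrading enzyme, 110, 352 and 163.1 against 628 and 857. Alb, the albumin gene and the largest part of the sum, had 20513, 18647 and 21821 against 18532 and 27246, so the groups overlapped. The sum of dabigatran replicate 1 was close to the highest diet sum. Ttr, the 1 lower gene, had 2337, 1849 and 2945 against 1707 and 1518. The part of the hepatocyte list in the Cd163 difference was not tested.

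Genes around Cd163 in the handling of haemoglobin and haem did not pass the test. Of 11 genes of haemoglobin and haem scavenging, Cd163 included, none was called, and the median log2 difference was -0.35. At an unadjusted p under 0.05, 1 (Cd163) was higher and 2 were lower, beside 6.87% and 9.13% of all tested genes. The groups did not overlap for 1 higher and 4 lower genes, beside 17.2% of all tested genes in each direction. The haptoglobin gene Hp, whose product carries free haemoglobin to CD163, had 1215, 1970 and 1472 FPKM across the diet libraries and 1991 and 1927 with dabigatran (adjusted p = 0.499). Hmox1, the enzyme that opens the haem ring, had 17.3, 13.3 and 15.5 against 16.5 and 20.2. Blvrb, a biliverdin reductase, had 68.6, 38.0 and 80.9 against 31.6 and 23.4 (adjusted p = 0.159), and Blvra 6.98, 8.09 and 5.95 against 4.31 and 3.72. The iron exporter gene Slc40a1 had 61.2, 46.7 and 51.8 against 46.3 and 31.4.

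Clec4f (chromosome 6, 83644542 to 83656187), which is largely restricted to Kupffer cells in the mouse liver, was the steadiest marker. It had 55.4, 60.1 and 68.0 FPKM in diet replicates 0, 1 and 2 and 60.3 and 57.8 in dabigatran replicates 1 and 2. Both dabigatran values lay inside the diet range, and its highest value was 1.23 times its lowest. The log2 difference was -0.05 ± 0.17 (SE, limma, adjusted p = 0.925), and the 95% confidence interval of the fold was 0.737 to 1.27. It rested on 248 to 365 fragments per library. Its sign turned with quantile normalization (0.04) and without diet replicate 2 (0.03).

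Vsig4 (chromosome X, 96247203 to 96293438) and Timd4 (chromosome 11, 46810800 to 46844332) also overlapped between the groups. Vsig4 had 24.5, 36.9 and 28.4 FPKM across the diet libraries and 38.4 and 33.4 with dabigatran, a log2 difference of 0.28 ± 0.22 (SE, limma, adjusted p = 0.570). Diet replicate 1 lay between the dabigatran values. Timd4 had 4.81, 4.22 and 6.43 FPKM against 4.91 and 3.38, a log2 difference of -0.28 ± 0.27 (SE, limma, adjusted p = 0.647). Timd4 rested on 13 to 31 fragments per library. The 13 fragments of dabigatran replicate 2 have a 95% Poisson interval of 6.92 to 22.2, or 1.80 to 5.77 FPKM, which covers counting error only and includes 4 of the 5 values.

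Cd5l (chromosome 3, 87357881 to 87371073), Lyz2 (chromosome 10, 117277331 to 117282321) and Csf1r (chromosome 18, 61100598 to 61132149) had both their highest and their lowest value in the dabigatran group. Cd5l had 63.4, 83.3 and 86.1 FPKM across the diet libraries and 99.4 and 48.9 in dabigatran replicates 1 and 2. Lyz2 had 60.5, 73.4 and 83.8 against 89.6 and 34.9, and Csf1r 15.5, 18.6 and 16.8 against 22.0 and 14.5. In each of these genes the dabigatran libraries thus bracketed the whole diet group. The log2 differences were -0.14 ± 0.30 for Cd5l, -0.36 ± 0.36 for Lyz2 and 0.07 ± 0.23 for Csf1r (SE, limma, adjusted p of 0.853, 0.662 and 0.905). The direction followed the library left out: without dabigatran replicate 2 Cd5l had 0.37 and Lyz2 0.31, and without dabigatran replicate 1 Csf1r had -0.22. Csf1r also turned, to -0.01, when values were rescaled to a common sum.

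The values of Lyz2 and Csf1r carry some uncertainty of assignment. Of the 50-base windows of the Lyz2 transcript, 15.4% also occur in other genes, mostly Lyz1, which had 6.73, 6.87 and 10.0 FPKM across the diet libraries and 4.36 and 4.84 with dabigatran. Exons of Csf1r overlap those of Hmgxb3 on the opposite strand (17.7% of windows shared), and the use of strand is not given in the sources used here. Hmgxb3 had between 1.57 and 2.66 FPKM, well under Csf1r in every library. No other marker shared exons with another annotated gene, and their shared windows came to 0.137% in Cd163 and to none in the rest.

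Emr1 (chromosome 17, 57358691 to 57483527) and Cd68 (chromosome 11, 69664213 to 69666153) had their lowest values in dabigatran replicate 2. Emr1 had 10.0, 11.3 and 13.0 FPKM across the diet libraries and 11.1 and 6.89 with dabigatran, a log2 difference of -0.36 ± 0.25 (SE, limma, adjusted p = 0.523). Cd68 had 10.9, 8.44 and 18.4 against 12.7 and 6.40, a log2 difference of -0.38 ± 0.38 (SE, limma, adjusted p = 0.655). In both genes dabigatran replicate 1 lay inside the diet range. Without dabigatran replicate 2 the log2 difference of Emr1 was -0.04 and that of Cd68 0.08. Cd68 rested on 10 to 36 fragments per library, with a 95% Poisson interval of 4.80 to 18.4 fragments (3.07 to 11.8 FPKM) for the 10 of dabigatran replicate 2.

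Marco (chromosome 1, 120474538 to 120505024) varied most between libraries. It had 2.44, 4.08 and 8.50 FPKM in diet replicates 0, 1 and 2 and 15.5 and 2.88 in dabigatran replicates 1 and 2. Its highest value was 6.36 times its lowest, and the dabigatran libraries alone differed 5.41-fold. These values rested on 11, 14, 37, 60 and 10 fragments. The 95% Poisson intervals were 11.9 to 20.0 FPKM in dabigatran replicate 1 and 1.38 to 5.29 in dabigatran replicate 2, which cover counting error only and not the spread between animals. The log2 difference was 0.57 ± 0.67 (SE, limma, adjusted p = 0.716), and -0.55 without dabigatran replicate 1. Its direction thus followed 1 library.

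The neutrophil genes S100a8 and S100a9 were high in the same libraries as Marco, while the other neutrophil genes were mixed. S100a9, a calcium-binding protein gene of neutrophils, had 1.42, 1.86 and 14.7 FPKM across the diet libraries and 28.1 and 1.84 with dabigatran, and S100a8, its partner, had 2.17, 0 and 4.48 against 12.6 and 0. Diet replicate 2 and dabigatran replicate 1 were the highest 2 libraries for both genes and for Marco. Of the 9 matched neutrophil genes, 6, 4 and 6 were above 0 in the diet libraries and 8 and 3 in the dabigatran libraries, with a summed level of 3.41 to 23.1 FPKM in the diet group and of 48.7 and 3.80 with dabigatran. Csf3r, the third tested gene of this list, had 1.40, 0.614 and 0.604 FPKM against 1.36 and 1.06, so its highest library was diet replicate 0 and its lowest diet replicate 2. Ngp was above 0 only in diet replicate 2 (2.14 FPKM) and dabigatran replicate 1 (3.38 FPKM), and Mpo was highest in dabigatran replicate 1 (0.590 FPKM). Cxcr2 was highest in dabigatran replicate 2 (0.901 FPKM) and Retnlg in diet replicate 0 (1.30 FPKM). Elane was listed at 0 in all libraries but dabigatran replicate 1, and Camp in all but diet replicate 2. Their part in the Marco values was not tested. The likeness of S100a8 and S100a9 to Marco was noticed after the values were seen.

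**Figure D4:**
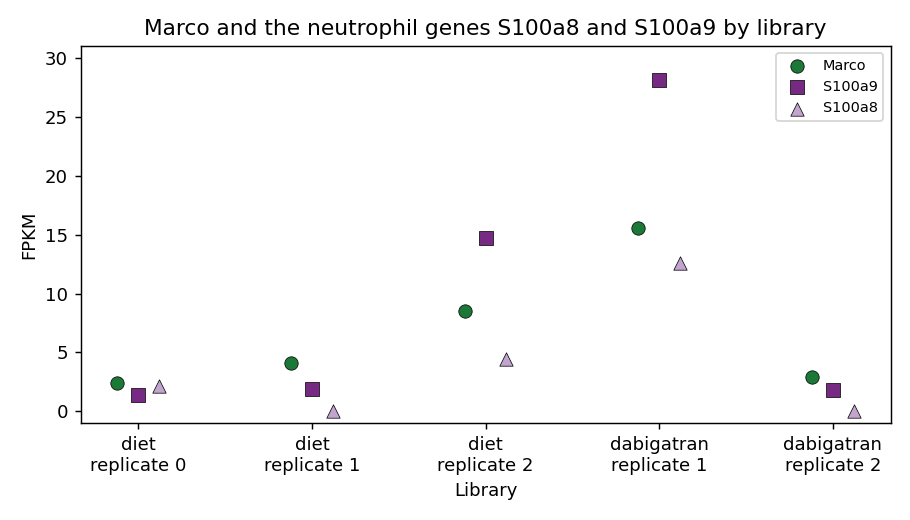
FPKM of Marco and of the neutrophil genes S100a8 and S100a9 in each of the 5 libraries. All 3 genes were highest in dabigatran replicate 1 and next highest in diet replicate 2.

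For most markers the dabigatran libraries differed from each other in the same direction. Of the 10 markers, 9 were lower in dabigatran replicate 2 than in replicate 1, Cd163 being the exception, beside 47.0% of all tested genes. Dabigatran replicate 2 was the lowest of all libraries for 6 markers, against 25.1% of tested genes, and dabigatran replicate 1 the highest for 5, against 15.8%. Summed over the 10 markers, the level was 251, 306 and 333 FPKM in diet replicates 0, 1 and 2 and 366 and 222 in dabigatran replicates 1 and 2. The median deviation from the diet mean of the 9 markers other than Cd163 was 0.32 in dabigatran replicate 1 and -0.55 in replicate 2 on the log2 scale, and -0.18, -0.01 and 0.19 in the diet libraries. With all 10 markers, the median difference between the groups was 0.34 without dabigatran replicate 2 and -0.54 without replicate 1. Markers of the same cells are not independent, so these counts describe libraries and were not tested.

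**Figure D5:**
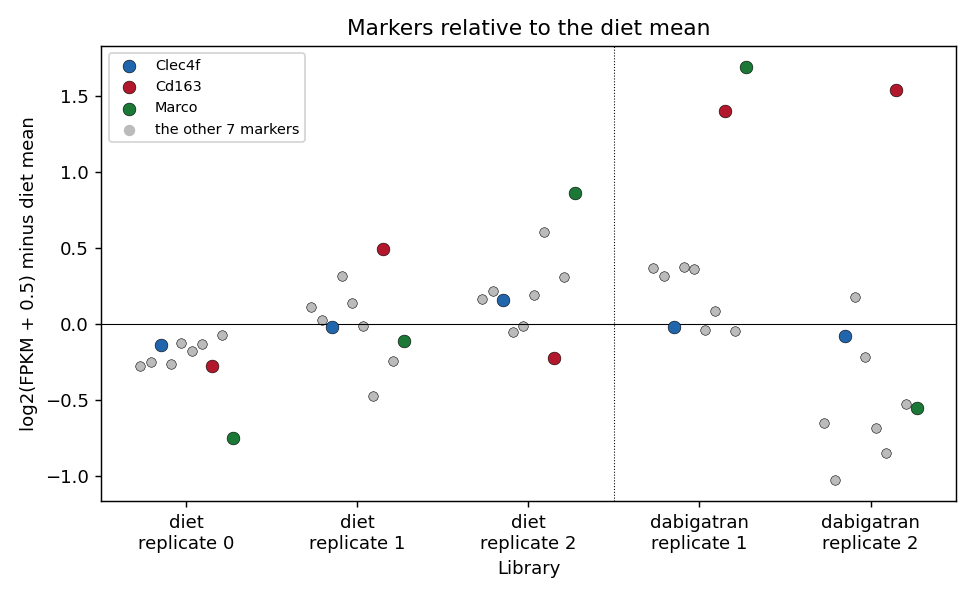
Log2(FPKM + 0.5) of each marker minus its diet mean, by library. In dabigatran replicate 2 most of the grey points (the other 7 markers) lie below 0, while Cd163 lies near 1.5 in both dabigatran libraries and Clec4f stays near 0 throughout.

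Other resident Kupffer genes, from a list of 17, gave the same count of calls as the markers, 0 in either direction. At an unadjusted p under 0.05, 1 was higher and 1 lower, beside 6.87% and 9.13% of all tested genes. The median log2 difference was 0.00. The groups did not overlap for 2 higher and 3 lower genes, beside 17.2% of all tested genes in each direction. The complement subunit genes C1qa, C1qb and C1qc overlapped between the groups. C1qa had 28.9, 38.0 and 42.1 FPKM across the diet libraries and 40.6 and 38.0 with dabigatran, and C1qb 46.3, 51.1 and 62.7 against 59.9 and 53.9. C1qc had 36.4, 36.8 and 49.8 against 43.0 and 26.0. The transcription factor gene Nr1h3 (LXR alpha) had 39.1, 35.8 and 44.6 against 40.1 and 38.6, although hepatocytes express it too.

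The lowest p in that list belonged to genes that other liver cells also express. C6, a terminal complement component, had 48.5, 79.1 and 66.3 FPKM across the diet libraries and 134 and 155 with dabigatran (limma, adjusted p = 0.0739). Hpgd, a prostaglandin-inactivating enzyme, had 67.4, 41.9 and 55.7 against 28.6 and 12.9 (limma, adjusted p = 0.103). The groups did not overlap in either gene, as in 34.4% of all tested genes. Id3, a regulator of Kupffer cell development, had 40.9, 75.3 and 75.7 against 54.5 and 8.93, so dabigatran replicate 2 alone was low.

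General macrophage genes repeated the split between the dabigatran libraries. Of 22 matched genes 21 were tested and none was called. At an unadjusted p under 0.05, 1 was higher and 2 lower, beside 6.87% and 9.13% of all tested genes. The median log2 difference was -0.14. Their median deviation from the diet mean was 0.32 in dabigatran replicate 1 and -0.63 in replicate 2, beside 0.12 and -0.10 for the 17 Kupffer genes. Whether the 2 lists differ in this split was not tested. Cd14, the lipopolysaccharide co-receptor, had 1.84, 2.82 and 1.90 FPKM against 4.64 and 7.14 (limma, adjusted p = 0.109). Fcgr1, a high-affinity Fc receptor, had 2.82, 1.52 and 3.26 against 0.773 and 0.858 (limma, adjusted p = 0.184). Both had groups that did not overlap, in opposite directions. Of the 21 tested genes this held for 2 higher and 3 lower, beside 17.2% of all tested genes in each direction.

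The growth factor axis of Csf1r showed no call among its 8 tested genes, whose median log2 difference was 0.07. Csf1, the ligand gene, had 3.34, 2.02 and 3.49 FPKM across the diet libraries and 1.94 and 2.83 with dabigatran (limma, adjusted p = 0.748). Il34, the other ligand gene, had 0.261, 0.686 and 0.540 against 0.913 and 0.676, under the filter on low values. Of the other receptor genes on the list, Csf2rb had 1.90, 1.93 and 2.42 against 3.03 and 3.14, and Csf2ra 0.962, 1.26 and 2.99 against 1.40 and 0.311. The groups overlapped for both ligand genes. They did not overlap for 1 of the 8 tested genes, Csf2rb, which was higher, beside 17.2% of all tested genes in each direction.

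Genes of recruited monocytes and lipid-associated macrophages were mostly too low to test. Of 14, 6 passed the filter and none was called. Trem2 had 0.898, 1.18 and 0.464 FPKM in the diet libraries, 2.62 in dabigatran replicate 1 and was listed at 0 in replicate 2, and Gpnmb was under 1 in all libraries. Ly6c2 had 0.667, 0.876 and 1.38 FPKM in diet replicates 0, 1 and 2, while both dabigatran libraries list it at 0, and the chemokine receptor gene Ccr2 had 2.68, 0.306 and 1.69 against 0.680 and 0.453. Spp1, the osteopontin gene, had 49.4, 31.2 and 39.0 against 35.3 and 9.54 (limma, adjusted p = 0.323), and bile duct cells express it as well. Cd9 had 3.21, 11.6 and 10.4 against 19.2 and 14.0 (limma, adjusted p = 0.312).

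Markers of other cells in the liver were measured beside the macrophage genes. Sinusoidal endothelial genes, neighbours of Kupffer cells, summed to 157 to 162.5 FPKM across the diet libraries and to 158 and 156 with dabigatran, with 0 of 13 called and a median log2 difference of 0.18. Within them Lyve1 had 10.4, 9.07 and 7.31 FPKM against 18.6 and 23.2 (limma, adjusted p = 0.0689), and Clec4g 50.4, 53.6 and 53.3 against 37.2 and 25.4 (limma, adjusted p = 0.139). The summed endothelial level thus did not show the split between the dabigatran libraries that the macrophage genes had. That sum covered differences in both directions. The groups did not overlap for 7 higher and 2 lower of the 13 genes, beside 17.2% of all tested genes in each direction. Stab1 had 4.66, 2.06 and 4.19 FPKM against 5.79 and 7.87. Lymphocyte genes did not pass the filter (0 of 13), with a summed 4.70 to 6.36 FPKM in the diet group and 5.96 and 1.30 with dabigatran, and the T cell gene Cd3e was listed at 0 in diet replicate 0 and dabigatran replicate 2. Of 8 dendritic cell genes 2 were tested, and Flt3 was under 1 FPKM in all libraries. Stellate genes had 0 of 9 called, beside 0.429% of all tested genes. The groups did not overlap for 3 higher and 2 lower genes, beside 17.2% of all tested genes in each direction. Col3a1 had 6.26, 3.48 and 6.32 FPKM across the diet libraries and 1.29 and 0.953 with dabigatran (limma, adjusted p = 0.0674). Rgs5 had 10.6, 12.3 and 8.67 against 15.8 and 17.6, and Lrat 5.45, 7.05 and 5.39 against 5.19 and 4.97. The bile duct gene Krt19 was under 1 FPKM in all libraries. Of the fat cell genes, Adipoq was listed at 0 in all libraries but diet replicate 0 (0.320 FPKM). Of the 2 tested on that list, Cfd fell (adjusted p = 0.0110), from 150.4, 28.3 and 47.5 FPKM to values listed at 0.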

How the data were processed

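Liver RNA of C57BL/6 mice was sequenced from TruSeq libraries, per the labels' protocols. The authors deposited 1 FPKM value per gene symbol and library, the unit per the file headers. Per the submitters' processing notes, R 2.15.1, Cuffdiff, TopHat2 2.0.4, TopHat and CASAVA were used, and the builds were GRCm38 and mm10, without a statement of what each tool did. For annotation, multi-mapping reads, strand and library scaling, the method was not given in the sources used here.

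The test covered the 10247 genes that reached 1 FPKM in 3 or more of 5 distinct libraries. Values were log2(FPKM + 0.5), fitted with limma 3.58.1 in R 4.3.3 (variance trend, group as sole term, two-sided, Benjamini-Hochberg over all tested genes, threshold 0.05). Groups were taken from the sample titles. Fold changes are on this log2 scale, which understates changes of low genes. The fit was tested on simulated data. The rule for names took all 10 markers, up to 3 members of each list by unadjusted p and fixed defining genes. For Cd163 and Clec4f it added the 3 most alike tested genes. Members and lists were chosen with earlier results of these data known. Positions are from GENCODE M21 (GRCm38).

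Relative depth came from the steps of values under 0.3 FPKM. With it, 8170 tested genes (79.7%) were whole multiples of a step (relative tolerance 2e-05). Of 1000 genes with shifted values, 1.2% were. Fragments are the smallest whole numbers in that ratio, and 9 markers had them. The median tested gene with whole fragments had 32 to 42. For Cd163 transcript length gave estimates of 34, 47 and 34 fragments in the diet libraries and 103 and 102 with dabigatran. Alternatives were other pseudocounts, filters, scalings and variance models, voom on whole fragments, a replicate block and leaving out each library.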

Additional observations from a re-analysis of the deposited data

How the results depend on the processing

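Across 14 alternatives, 128 of the 137 recomputed marker differences kept their direction and their side of the threshold. Other filters and the fit without a variance trend leave the log2 differences as in the main fit. Their direction could thus not change there, only their side of the threshold. The replicate block gave the same differences as leaving out diet replicate 0, so this count overstates how stable the directions were. The count of called markers, 0 in the main analysis, was 1 without diet replicate 1 and 0 in every other alternative, so that leaving out a library gave 0 to 1. That marker was Cd163 (1.72), in a setting that called 294 of the 10247 tested genes, against 44 in the main analysis. Some differences that had not passed the test changed sign: Clec4f with quantile normalization (0.04349) and without diet replicate 2 (0.03204, the range without a library being -0.11 to 0.03), Csf1r with values rescaled to a common sum (-0.009239) and without dabigatran replicate 1 (-0.22), and Marco without dabigatran replicate 1 (-0.55, range to 1.70). Without dabigatran replicate 2, Cd5l (0.37), Cd68 (0.08437) and Lyz2 (0.31) did so, and their lowest values, without dabigatran replicate 1, were -0.65, -0.85 and -1.03. The median over the markers ran from -0.54 to 0.34 when a library was left out. Of all tested genes 44 were called. The count was 23 with a pseudocount of 0.1, 27 after quantile normalization, 10 with voom, 0 without a filter and 0 without a variance trend, and 0 to 294 when a library was left out. The limma fits that called 0 genes had 1933 (no filter), 1562 (no variance trend), 1107 (without diet replicate 2) and 1010 (without dabigatran replicate 2) at an unadjusted p under 0.05. The cause was not tested.

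With the replicate number as a block 13 genes were called, and 0 markers, with a marker median of -0.20. The deviations of same-numbered libraries had correlations of -0.04 and -0.03, and the numbers were not taken to pair the animals. The deviations of the 2 dabigatran libraries mirror each other, so these correlations cannot decide whether the animals were paired. With 2 dabigatran libraries and 10 to 60 fragments for Marco, Timd4 and Cd68, small differences in these genes were not detectable.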
